A study of Danio rerio with 16 samples.

Results

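Macrophages sorted as derived from the caudal hematopoietic tissue (CHT) of zebrafish embryos were compared with and without a cut of the caudal fin. They were chosen on measured values. A droplet barcode counted as a macrophage when it held at least 1000 unique molecular identifiers (UMIs), 300 to 7500 genes, at most 10% mitochondrial UMIs, under 1% of UMIs from the neutrophil lysozyme gene lyz and at least 3 UMIs over the 6 macrophage genes mfap4, mpeg1.1, marco, fgl2a, lgals3bpb and c1qb. This gave 1551 cells, 1001 from cut and 550 from normal embryos, of the 4774 CHT-derived barcodes within the limits and of 7599 over the 4 libraries of the study. Embryos of the transgenic line Tg(mpx:Dendra2), in which the myeloperoxidase promoter drives a green protein that turns red under light, had cells of the rostral blood island (RBI) photoconverted in the head at 34 and 44 h post fertilization (hpf). Cells not photoconverted stayed green and are called CHT-derived here. The study takes the green cells as enriched in CHT-derived neutrophils, and found some RBI-derived ones in the CHT at 44 hpf. Where the green macrophages arose was not traced. The caudal fin was transected at 54 hpf in the cut group and left whole in the normal group, and 3 h later the pooled embryos of each group were dissociated, sorted by colour and run on a droplet platform that counts the 3′ ends of transcripts. Apart from the cut, both groups carried the same transgene and had the same light treatment, dissociation and sort.

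Each group is 1 library. The labels list 4 entries per group, but they share 1 matrix with no map from cells to entries, so no test between cut and normal was possible, and every interval given covers counting error only. Cells of 1 library are not replicates of the cut. Levels are CPM, the UMIs of a gene scaled to a total of 1000000 over the cells of a group (5485360 UMIs in cut and 5197515 in normal macrophages), and "higher" or "lower" of a gene means a CPM ratio of cut over normal of at least 2-fold.

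Macrophages take up dying cells, microbes and debris and break them down in lysosomes. At a wound they also release cytokines and chemokines that call in neutrophils and further macrophages, growth factors for the repairing epithelium, and, with time, signals that damp the inflammation. In the zebrafish embryo an early wave of macrophages arises in the head, near the rostral blood island, while the CHT in the tail houses the next source of blood cells and lies close to the fin.

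The label of the cells was held against their genes. The sort was for a neutrophil reporter and the labels call all cells neutrophils, but the 16 macrophage markers that the choice of cells did not use were all detected in these cells, at a summed 8097 CPM in cut and 7105 CPM in normal macrophages. Neutrophils here were barcodes within the same limits of UMIs, genes and mitochondrial share with at least 1% of UMIs from lyz. No other gene was asked of them, so mixed droplets or macrophages rich in lyz could fall among them. In neutrophils of the same libraries the 16 markers summed to 1288 CPM in cut and 1082 CPM in normal. These values come from the cells that the other markers chose and are a description. The chemokine ccl34a.4 alone gave 5170 CPM in cut and 3127 CPM in normal macrophages of these sums. Over all macrophage markers, the choosing ones included, 0 of 21 measured were higher and 5 were lower (23.8%, beside 4.94% of all genes). Of the 21, 15 were below 0, with a median log2 ratio of -0.52. The choosing genes c1qb and mpeg1.1 were among the 5 lower ones, so these counts and the median are a description only. The colony stimulating factor receptor csf1ra, which the choice of cells did not use, had 45.2 CPM in cut and 72.3 CPM in normal macrophages. The lineage factor irf8 had 44.1 CPM in cut and 70.8 CPM in normal, and spi1b had 439 CPM in cut and 615 CPM in normal. Dendra2 transcripts had 748 CPM in cut and 809 CPM in normal macrophages. With all UMIs, at unequal depth, they were counted in 77.0% of cut and 86.9% of normal macrophages. The gene mpx itself had 44.5 CPM in cut and 31.4 CPM in normal cells. Macrophage-type transcripts beyond the choosing genes were present in both groups. Neutrophil markers were there as well, 16 of 16 detected, at a summed 4698 CPM in cut and 3096 CPM in normal macrophages, of which free RNA could supply up to 2352 CPM in cut and 1101 CPM in normal. Blood progenitor markers summed to 665 CPM in cut and 324 CPM in normal macrophages. Most of this sum was cebpa, also a factor of granulocytes and macrophages, with 644 CPM in cut and 287 CPM in normal. The other gene of that list with enough UMIs went the other way (log2 ratio -1.19). Neutrophil markers exceeded 1% of the UMIs in 36 cut and 3 normal macrophages. In 65 cut and 11 normal macrophages the markers of another class outnumbered the macrophage markers. Without these cells 299 genes were higher and 404 lower, beside 315 and 379 with all cells. With lyz limited to under 0.3% they were 307 and 398. The part of the neutrophil list or of the progenitor list alone was not tested. The genes used to choose the cells are given as a description. The matrix gene mfap4 had 2026 CPM in cut and 2500.0 CPM in normal macrophages, the pore-forming mpeg1.1 182 CPM in cut and 363 in normal and the scavenger receptor marco 303 CPM in cut and 244 in normal. Of the others, fgl2a had 1203 CPM in cut and 1195 in normal, lgals3bpb 224 CPM in cut and 441 in normal, c1qb 19.5 CPM in cut and 87.3 in normal and lyz 1662 CPM in cut and 882 in normal. The sum of the 6 markers had a median of 19 UMIs per cell in cut and 40 in normal macrophages.

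Depth differed between the groups. The median macrophage held 5349 UMIs and 1555 genes in cut, against 9264 UMIs and 2201.5 genes in normal, with 2.89% mitochondrial UMIs in cut and 2.26% in normal. Neutrophils of the same libraries differed likewise (4105 UMIs in cut and 8900 in normal). Just inside the marker threshold, 13 cut and 3 normal cells had exactly 3 marker UMIs, and just outside it 31 cut and 9 normal barcodes had 2. The chemokine ccl34a.4 had 2017 CPM in cut and 0 CPM in normal cells just inside, and 473 CPM in cut and 853 CPM in normal cells just outside. No macrophage held under 1100 UMIs, and 2 cut and 0 normal cells had 0.9 to 1% lyz. Of the 1001 cut macrophages, 11 shared a barcode with a barcode within the limits in another library, as did 3 of the 550 normal ones. Without these 14 cells no count of genes given here moved by over 1.5 times. Free RNA, read from barcodes of 10 to 100 UMIs, could make up at most 4.46% of the UMIs of cut and 1.22% of those of normal macrophages, by the neutrophil genes that limit it.

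The cut library held more macrophages. It had 1001 (95% Poisson interval 940 to 1065) against 550 (505 to 598) in the normal library, a ratio of 1.82 (1.64 to 2.02). CHT-derived neutrophils were at 1172 against 675, a ratio of 1.74 (1.58 to 1.91), and the remaining cells at 752 against 624, a ratio of 1.21. As a share of macrophages and neutrophils, macrophages made up 46.1% (exact binomial 44.0 to 48.2%) in cut and 44.9% (42.1 to 47.7%) in normal, so the shares lay within each other's counting intervals. Under 8 alternative choices of cells the cut share ran from 41.5 to 54.2% and the normal share from 43.1 to 46.0%. Their closeness thus depends on the limits set. RBI-derived macrophages were fewer, 230 in cut and 44 in normal, and made up 15.7% (13.8 to 17.6%) of macrophages and neutrophils in their cut library and 4.40% (3.21 to 5.86%) in their normal one. The number of cells that a sort and a droplet run capture cannot be told apart here from the number in the embryo.

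Of 7666 genes with at least 50 UMIs over both groups, 315 were higher (4.11%) and 379 were lower (4.94%) in cut macrophages, and the median log2 ratio was -0.10. Over all genes 41.0% had a log2 ratio above 0. The counts of each gene list below stand against these shares. With TMM factors, a scaling that trims extreme genes, 57.0% of the genes past 2-fold were on the higher side, against 45.4% with CPM. Counted as UMIs per cell with no scaling, every log2 ratio was 0.79 lower, since cut cells held fewer UMIs, so that a gene with a log2 CPM ratio between 0 and 0.79 turned its direction.

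**Figure D1:**
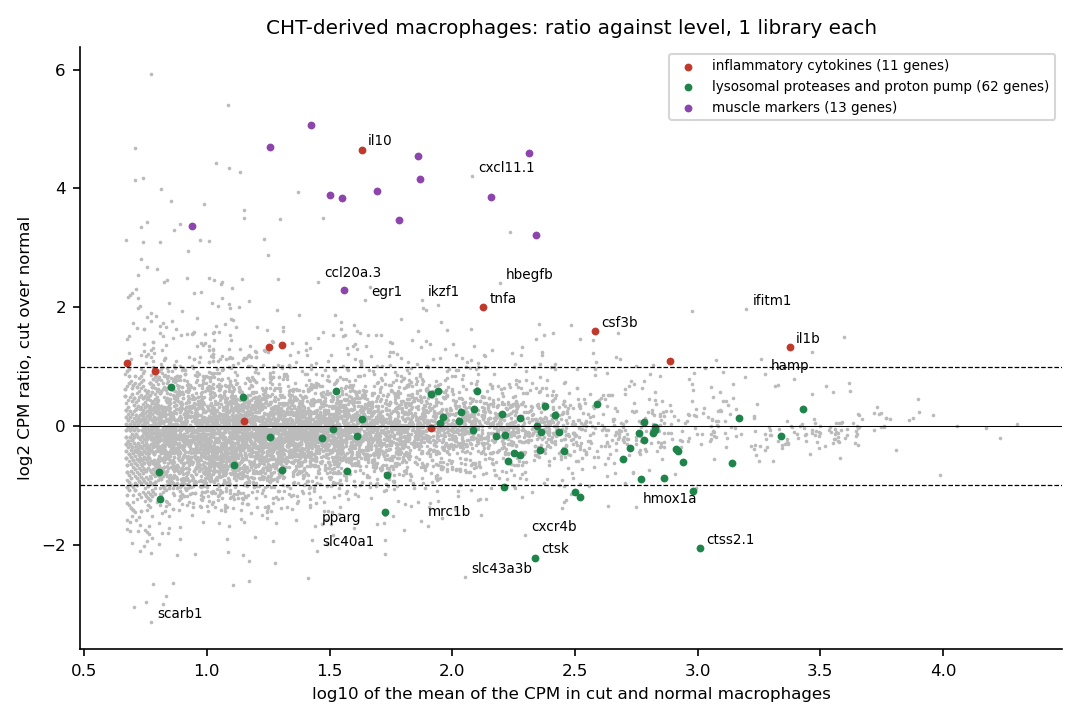
Log2 CPM ratio of cut over normal CHT-derived macrophages (vertical) against the log10 of the mean CPM of both groups (horizontal) for 7666 genes, 1 library each; dashed lines mark 2-fold. Inflammatory cytokines (11 genes, red) sit at or above 0 but for mif at -0.03, lysosomal genes (62, green) reach down to ctsk at -2.22, and the 13 muscle markers (purple), most of whose UMIs came from 1 cut cell, sit high.

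Inflammatory cytokines, the secreted signals of an activated macrophage, were mostly higher in cut. Of 11 measured, 8 were higher (72.7%, beside 4.11% of all genes) and 0 were lower by 2-fold. Their median log2 ratio was 1.32 (0.54 as UMIs per cell) beside -0.10 for all genes. The interleukin gene il1b, which starts the inflammatory response, had 3407 CPM in cut and 1353 CPM in normal macrophages (log2 ratio 1.33, 95% counting interval 1.29 to 1.37). The tumour necrosis factor genes tnfa and tnfb had 215 CPM in cut and 53.5 in normal and 1047 CPM in cut and 494 in normal, log2 ratios of 2.01 and 1.08. All 3 of these classic inflammatory genes were thus over 2-fold higher. The gene il10 (ENSDARG00000078147), whose product damps inflammation, had the highest ratio of any gene in the list: 452 UMIs in cut and 17 in normal, or 82.4 CPM in cut and 3.27 in normal (log2 ratio 4.65, 3.96 to 5.45). The granulocyte colony stimulating factors csf3b and csf3a, which drive the making and release of neutrophils, had 575 CPM in cut and 189 in normal (log2 ratio 1.603) for csf3b and 25.5 CPM in cut and 10.2 in normal (1.32) for csf3a. Also higher were il11b of the interleukin 6 family (29.2 CPM in cut and 11.4 in normal) and il4 (6.38 CPM in cut and 3.08 in normal). The value of il4 rests on 35 UMIs in cut and 16 in normal and was -0.13 in cells thinned to equal depth. Neither mif, a cytokine stored ready in many cells, nor il21, which acts on lymphocytes, was past 2-fold, with log2 ratios of -0.03 and 0.07. The log2 ratio of il6 was 0.92 from 44 UMIs in cut and 22 in normal.

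**Figure D2:**
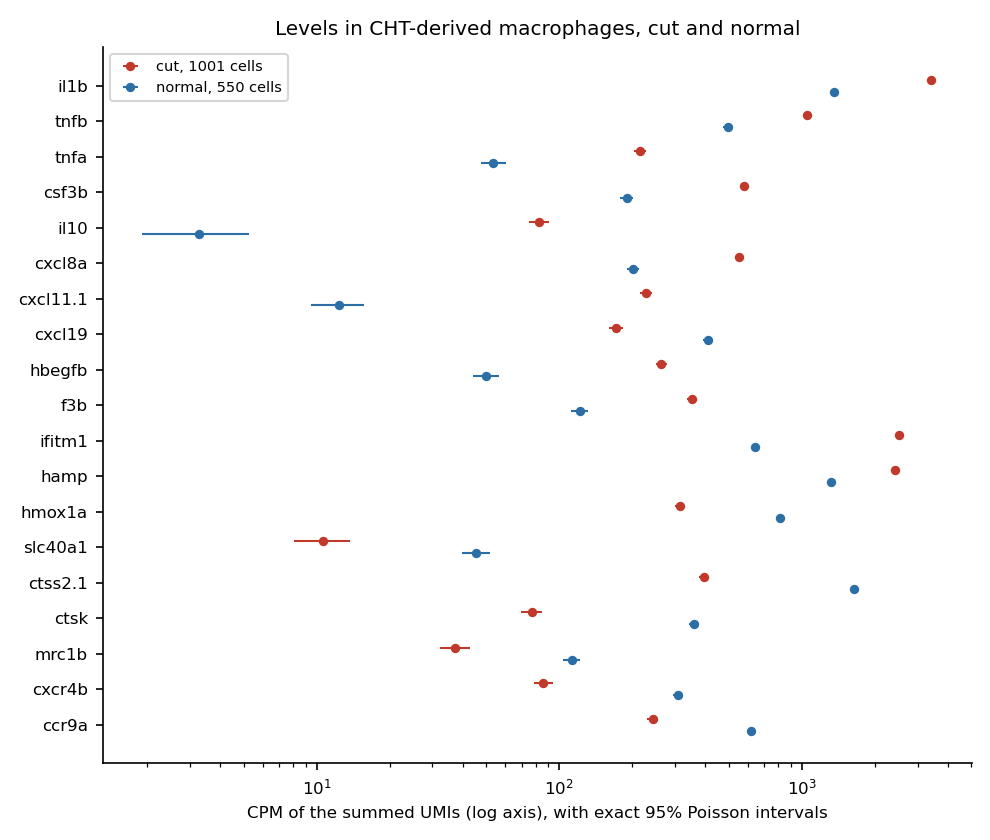
Level of 19 genes as CPM on a log axis in 1001 cut (red) and 550 normal (blue) macrophages, points with exact 95% Poisson intervals, which cover counting error only. The widest gaps on the higher side are il10 (82.4 CPM in cut and 3.27 in normal) and cxcl11.1 (228 in cut and 12.3 in normal), while ctsk, slc40a1, ctss2.1 and cxcr4b lie lower in cut. The gene slc40a1 was detected no more often than in the other cells at equal depth.

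Chemokines, the attractants for other leukocytes, split into genes that differed much and genes that did not. Of 5 CXC chemokines measured, 3 were higher (60%, beside 4.11% of all genes) and 1 was lower (20%, beside 4.94%). The gene cxcl11.1 (ENSDARG00000100662), a ligand of the receptor Cxcr3 in zebrafish, had 228 CPM in cut and 12.3 CPM in normal macrophages (log2 ratio 4.21, 95% counting interval 3.85 to 4.60). The neutrophil attractant cxcl8a had 551 CPM in cut and 201 in normal (1.45). The third, cxcl18b, a zebrafish chemokine that draws neutrophils, had 63 UMIs in cut and 7 in normal. In cells that were neither macrophage nor neutrophil, cxcl18b had 59.9 CPM in cut and 53.8 in normal. Both values lay above those of the macrophages. RBI-derived macrophages held 1 UMI of it in cut and 3 in normal. Whether macrophages expressed cxcl18b was not tested. Unlike the 3 higher genes, cxcl19 was lower, at 172 CPM in cut and 409 CPM in normal macrophages (log2 ratio -1.25, -1.36 to -1.14). The log2 ratio of cxcl11.6 was 0.09. Of 11 CC chemokines, 3 were higher (27.3%) and 0 lower, and their median of 0.57 was -0.22 as UMIs per cell. The gene ccl20a.3, of a family of lymphocyte and dendritic cell attractants, had 47.8 CPM in cut and 8.85 in normal (2.43). Its relatives ccl38a.5 and ccl34b.8 had 76.9 CPM in cut and 15.2 in normal (2.34) and 150.4 CPM in cut and 67.9 in normal (1.15). The abundant macrophage chemokine ccl34a.4 had 5170.5 CPM in cut and 3127 in normal, a log2 ratio of 0.73 that was -0.06 as UMIs per cell. Chemokine copies lie close to each other in sequence and some reads could be split between them, so their levels are uncertain to that extent.

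Receptors for these signals differed in both directions. Of 27 measured, 5 were higher (18.5%, beside 4.11% of all genes) and 3 were lower (11.11%, beside 4.94%). On the higher side was ccr2, the receptor for monocyte attractants, with 19.9 CPM in cut and 5.77 in normal. The interferon gamma receptor gene ifngr1 had 106 CPM in cut and 42.3 in normal, and the interleukin 4 receptor il4r.1 123 CPM in cut and 55.6 in normal. The interleukin 10 receptor il10ra had 172 CPM in cut and 82.3 in normal, and gpr84, a receptor of fatty acids on activated myeloid cells, 884 CPM in cut and 437 in normal. Cytokine receptors thus made up 3 of the 5. The receptor cxcr4b, which holds leukocytes in their niche, had 86.0 CPM in cut and 309 CPM in normal macrophages (log2 ratio -1.85, -1.997 to -1.70). The chemokine receptor ccr9a had 243 CPM in cut and 619.7 in normal (-1.35). The receptor csf1rb, for the macrophage growth factor Csf1, had 5.83 CPM in cut and 18.9 in normal (-1.69). Ligands of the il10 and il1b kind and the receptor il10ra thus stood higher while cxcr4b and ccr9a stood lower.

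Factors that carry such signals to the nucleus had fewer members past 2-fold. Of 25 genes of the NF-κB pathway, 3 were higher (12%, beside 4.11% of all genes) and 0 were lower. Of these 25, 17 were above 0, with a median of 0.28 that was -0.50 as UMIs per cell. The inhibitors nfkbiaa and nfkbiab, themselves made in answer to NF-κB, had 828 CPM in cut and 452 in normal and 1985 CPM in cut and 1129 in normal (log2 ratios 0.87 and 0.81), under 2-fold. Past 2-fold were nfkbiz, a nuclear cofactor (24.1 CPM in cut and 5.58 in normal), and tnip1, a brake on the pathway (323 CPM in cut and 141 in normal). The third was bcl3, another nuclear cofactor (44.7 CPM in cut and 19.6 in normal). Of 37 immediate early genes, 4 were higher (10.8%) and 1 was lower (2.70%, beside 4.94% of all genes). The transcription factor egr1 had 71.6 CPM in cut and 16.5 in normal (2.11), and atf3 had 749 CPM in cut and 373 in normal. The phosphatases dusp2 and dusp1, which switch off kinase signals, had 132 CPM in cut and 54.1 in normal and 188 CPM in cut and 81.8 in normal. The factor klf2a, which keeps leukocytes quiescent in mammals, had 18.4 CPM in cut and 61.0 in normal (-1.73). Among 42 myeloid transcription factors, 2 were higher (4.76%, beside 4.11% of all genes) and 3 lower (7.14%, beside 4.94%). These shares were near those of all genes. Of the 42, 29 were below 0, with a median of -0.27, beside 41.0% of all genes above 0. The lymphoid and myeloid factor ikzf1 had 123 CPM in cut and 28.1 CPM in normal macrophages (log2 ratio 2.12, 1.86 to 2.39), and cebpa, a factor of granulocytes and macrophages, 644 CPM in cut and 287 in normal. The lower ones rest on few UMIs, bhlhe41 on 44 UMIs in cut and 97 in normal, tfe3a on 45 UMIs in cut and 95 in normal and fli1b on 38 UMIs in cut and 81 in normal. Of 15 interferon and SOCS genes, 1 was lower (6.67%) and 2 were higher (13.3%). The higher ones were the feedback inhibitor socs3a (265 CPM in cut and 116 in normal) and the kinase pim2 (488 CPM in cut and 178 in normal).

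Growth factor, matrix and protease genes were centred near 0 as a list. Of 28 measured, 6 were higher (21.4%, beside 4.11% of all genes) and 2 were lower (7.14%, beside 4.94%), and the median was 0.02. The epidermal growth factor family ligand hbegfb (ENSDARG00000031246) had 263 CPM in cut and 49.8 CPM in normal macrophages (log2 ratio 2.40, 95% counting interval 2.21 to 2.60). The tissue factor gene f3b, which starts coagulation, had 352 CPM in cut and 122 in normal (1.54). The sheddase adam8a (322 CPM in cut and 117 in normal) was also higher. So were the activin subunit inhbaa (52.9 CPM in cut and 21.4 in normal) and the matrix gene fn1a (8.75 CPM in cut and 4.23 in normal). The platelet-derived growth factor pdgfba and the annexin anxa5b were lower, from 61 UMIs (pdgfba) and 50 UMIs (anxa5b) over both groups. The list thus held members on both sides, with more on the higher one.

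Among recognition and defence genes 3 of 33 were higher and 4 were lower. The interferon-induced membrane gene ifitm1, which hinders virus entry, had 2516 CPM in cut and 643 CPM in normal macrophages (log2 ratio 1.97, 95% counting interval 1.91 to 2.02). The adaptor hcst (14.8 CPM in cut and 6.35 in normal) and the flagellin receptor tlr5b (306 CPM in cut and 149 in normal) were higher too. Lower was the mannose receptor mrc1b, with 37.2 CPM in cut and 112 CPM in normal macrophages (log2 ratio -1.595, -1.83 to -1.36). The lipoprotein receptor scarb1 had 6 UMIs in cut and 56 in normal. Also lower were the complement gene c1qa (17.5 CPM in cut and 42.7 in normal) and havcr2, a receptor that restrains immune cells (35.5 CPM in cut and 85.2 in normal). Of 11 antigen presentation genes 0 were higher and 1 was lower (9.09%, beside 4.94% of all genes), mhc2dab, with 13 UMIs in cut and 47 in normal.

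Lysosomal genes had members past 2-fold on the lower side alone. Of 62 measured, 8 were lower (12.9%, beside 4.94% of all genes) and 0 were higher, and the median was -0.17, close to the -0.10 of all genes, so the difference lay in part of the list. The cathepsins, proteases that digest what a macrophage has taken up, made up 5 of the 8. Cathepsin K, ctsk (ENSDARG00000040251), had 76.9 CPM in cut and 358 CPM in normal macrophages (log2 ratio -2.22, 95% counting interval -2.38 to -2.07). The cathepsin S gene ctss2.1 (ENSDARG00000074656) had 395 CPM in cut and 1642 in normal (log2 ratio -2.06, -2.12 to -1.99), and its copy ctss2.2 203 CPM in cut and 463 in normal. The cathepsin L gene ctsla had 608 CPM in cut and 1309 in normal, and ctsz had 201 CPM in cut and 434 in normal. All of these lay more than 2-fold apart between the groups. Also lower were the ribonuclease rnaset2l (28.4 CPM in cut and 77.7 in normal) and the dipeptidase dpp7 (107 CPM in cut and 219 in normal). The granulin copy grn2 had 21 UMIs in cut and 47 in normal. The proton pump subunits atp6v0ca and atp6v1g1, which acidify the lysosome, had log2 ratios of 0.28 and 0.12. The protease lgmn and the cholesterol carrier npc2 had -0.37 and -0.12, so these 4 were within 2-fold. Read counts of ctss2.1 and ctss2.2, near copies, may be split between them.

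Iron genes were centred near 0 as a list, with a median of 0.06. Of 22 measured, 1 was higher (4.55%, beside 4.11% of all genes) and 3 were lower (13.6%, beside 4.94%). The iron exporter slc40a1, ferroportin, had 10.6 CPM in cut and 45.4 CPM in normal macrophages (log2 ratio -2.10, 95% counting interval -2.54 to -1.68). At equal depth it was detected at or below its share in the other cells of each library. Those cells can express it themselves, so this share does not tell whether these macrophages expressed it. The haem oxygenase hmox1a had 314 CPM in cut and 810.2 in normal (-1.37), and blvrb, which acts after it in haem breakdown, had 21.3 CPM in cut and 47.7 in normal (-1.16). Higher was steap4, an iron and copper reductase, with 78 UMIs in cut and 7 in normal. The hepcidin gene hamp, whose product degrades ferroportin, had 2427 CPM in cut and 1325 in normal (0.87). The ferritin genes fth1a and fthl27 had log2 ratios of 0.69 and -0.03. The hmox1a difference rested on few cells. It was detected in 323 of 1001 cut and 249 of 550 normal macrophages. The 100 richest cut and 55 richest normal cells held 79.6% of its UMIs in cut and 89.5% in normal, with up to 87 UMIs in 1 cut cell and 331 in 1 normal cell.

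Lipid, oxidant and stress genes had few members past 2-fold. Of 35 oxidant and antioxidant genes 2 were higher and 2 were lower (5.71% each, beside 4.11% and 4.94% of all genes). Of the 35, 27 were below 0, with a median of -0.31. Of 22 lipid handling genes 1 was higher (4.55%, beside 4.11% of all genes) and 3 were lower (13.6%, beside 4.94%). The higher one was the fatty acid binding gene fabp7a (30.6 CPM in cut and 7.89 in normal). Its 168 UMIs in cut lay in 74 of 1001 cells, with 42 UMIs in 1 cell. Whether macrophages expressed fabp7a was not tested. The lower ones were the nuclear receptor pparg, which steers lipid uptake in macrophages (13.1 CPM in cut and 42.1 in normal), and the apolipoprotein apoeb (42.3 CPM in cut and 103 in normal). The last was the fatty acid activating enzyme acsl1a (4.74 CPM in cut and 10.97 in normal). Of 13 eicosanoid and oxysterol enzymes 1 was higher and 1 was lower (7.69% each, beside 4.11% and 4.94% of all genes). The gene ch25h, which makes the oxysterol 25-hydroxycholesterol, was higher (82.8 CPM in cut and 31.4 in normal). The prostaglandin D synthase gene ptgdsb.1 was lower (22.4 CPM in cut and 52.5 in normal). Of 43 genes of the endoplasmic reticulum, 2 were higher (4.65%, near the share over all genes) and 1 was lower (2.33%). Of the 43, 33 were above 0, with a median of 0.21, which was -0.58 as UMIs per cell. The disulphide isomerase pdia6 (245 CPM in cut and 105 in normal) and the chaperone cofactor dnajc3a (57.2 CPM in cut and 27.5 in normal) were higher. Heat shock genes, which stress can induce, had 2 higher (7.14%) and 1 lower (3.57%) of 28, with a median of -0.09. Glycolysis, proteasome and nuclear respiratory chain genes had medians of 0.01, 0.01 and 0.04, with 0 higher and 2 lower among 159 genes measured.

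Genes of growth and division lay mostly below 0 as lists. Over all genes 41.0% were above 0, with a median of -0.10. Of 46 nucleolar genes 42 were below 0 (median -0.49), of 28 S phase genes 27 (median -0.68) and of 44 G2 and M phase genes 44 (median -0.48). Most lay within 2-fold, and 2, 4 and 6 of them were 2-fold lower (4.35%, 14.3% and 13.6%, beside 4.94% of all genes). Among the lower ones were the helicase subunits mcm7 (9.30 CPM in cut and 28.9 in normal) and mcm3 (8.02 CPM in cut and 22.1 in normal) and the proliferation marker mki67 (23.9 CPM in cut and 51.0 in normal). Cells with at least 10 UMIs of S, G2 and M phase genes per 1000 UMIs made up 11.09% (9.21 to 13.2%) of cut and 13.5% (10.7 to 16.6%) of normal macrophages, intervals that overlap. Without these 111 and 74 cells, 0 of the G2 and M phase genes were lower. The cells left out were picked by UMIs of these same genes, and the UMI filter was applied anew. This count thus follows in part from the choice and is a description only.

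To compare detection at equal depth, each cell was thinned at random to 1000 UMIs, which left out no cell. At this depth the share of cells with a UMI of a gene of low level follows mostly from its CPM. For such genes the share cannot tell more expressing cells from more transcripts per cell. At equal depth il1b was detected in 83.9% (81.5 to 86.1) of cut and 50.9% (46.6 to 55.2) of normal macrophages, with 4.47 UMIs per positive cell in cut and 2.73 in normal. In all other cells of the libraries, neither macrophage nor neutrophil, the share was 5.85% in cut and 2.24% in normal. In cut macrophages il1b was thus detected in more cells and at more UMIs per positive cell. The gene tnfa was detected in 16.1% (13.9 to 18.5) of cut and 3.64% (2.24 to 5.56) of normal macrophages, and csf3b in 32.6% (29.7 to 35.6) of cut and 12% (9.40 to 15.01) of normal macrophages. Shares for hbegfb were 22.9% of cut and 5.09% of normal macrophages, and for ifitm1 55.9% of cut and 24.9% of normal macrophages. For tnfb they were 52.4% of cut and 28.7% of normal macrophages, and for cxcl8a 28.2% of cut and 10.2% of normal macrophages. In the other cells these 6 genes were in 0.66 to 5.85% of cut and 0.16 to 0.96% of normal cells, below the macrophages in each case. After thinning, il10 and cxcl11.1 were detected in 7.09% and 7.39% of cut macrophages. At the level of il10 a cell of 1000 UMIs seldom shows a UMI, so its share does not tell how many cells held it. The shares in normal were 0.182% and 0.727%, which stand for 1 and 4 of 550 cells, too few to read a size from. With all UMIs, the 100 richest cut cells held 61.7% of the il10 and 96.6% of the cxcl11.1 UMIs. Before thinning, 27.3% of cut and 2.73% of normal macrophages had an il10 UMI, and 95.4% of cut and 83.8% of normal ones an il1b UMI. The median depth of the other cells was 2227 UMIs in cut and 3639.5 in normal.

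Several genes lower in cut were also detected in fewer cells at equal depth. For those of low level this restates the CPM difference. The share with ctss2.1 was 27.6% (24.8 to 30.5) of cut and 67.3% (63.2 to 71.2) of normal macrophages, and with ctsk 6.79% (5.31 to 8.53) of cut and 22.4% (18.9 to 26.1) of normal macrophages. A transporter of purine bases in mammals, slc43a3b, was in 2.80% (1.87 to 4.02) of cut and 13.8% (11.04 to 16.99) of normal macrophages, and cxcl19 in 9.59% (7.84 to 11.59) of cut and 23.6% (20.14 to 27.4) of normal macrophages. The receptor ccr9a was in 16.8% of cut and 36.0% of normal macrophages, cxcr4b in 7.39% of cut and 20.7% of normal macrophages and mrc1b in 2.70% of cut and 8.91% of normal macrophages. In each of these the cut share lay below the normal one. For hmox1a they were 15.2% of cut and 16.9% of normal macrophages, within each other's intervals, while the UMIs per positive cell were 2.37 in cut and 3.73 in normal. The share with slc40a1 was also lower in cut (1.299% of cut and 5.09% of normal macrophages). It was at or below that of the other cells (3.19% in cut and 5.13% in normal), which does not tell whether macrophages expressed it. The same holds for egr1 in normal macrophages (2.0%, against 3.37% of other cells).

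**Figure D3:**
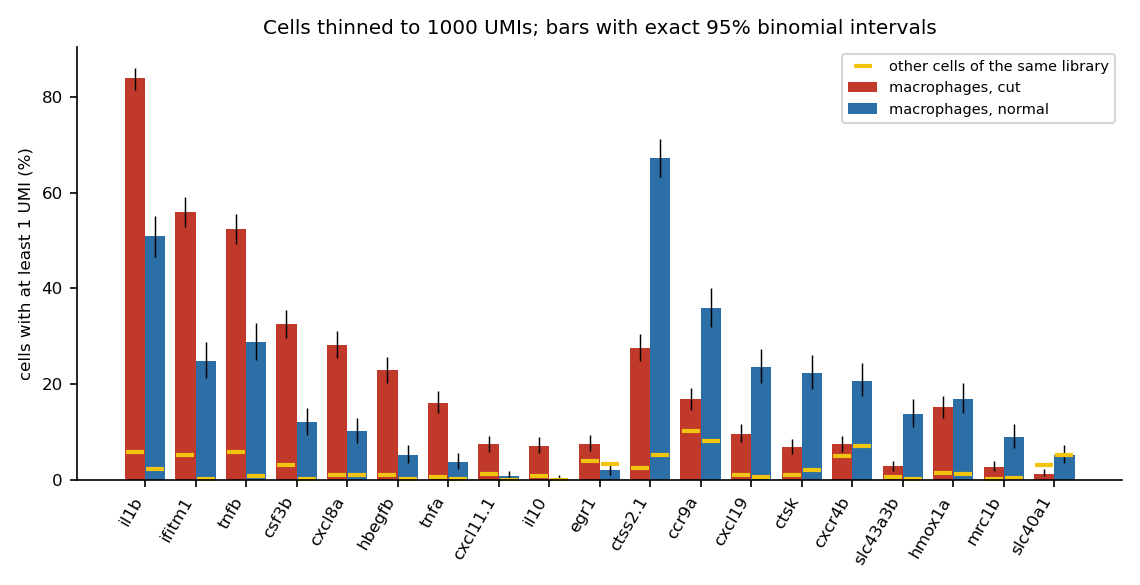
Percent of cut (red) and normal (blue) macrophages with at least 1 UMI of each gene after thinning every cell to 1000 UMIs, with exact 95% binomial intervals; yellow dashes give the same share in the other cells of that library. From il1b to il10 the red bar is the taller, from ctss2.1 to slc43a3b the blue one is, and for slc40a1 both bars lie at or under the other cells.

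Summed per cell, the inflammatory cytokines came to a median of 5 UMIs per 1000 in cut (quartiles 2 and 9) and 1 in normal macrophages (0 and 3), and 9.69% of cut and 34.4% of normal cells had none. Most cells of both groups thus held transcripts of the list. The lysosomal list had medians of 21 (17 and 26) in cut and 25 (21 and 32) in normal, and the NF-κB list 4 in cut and 2 in normal. The G2 and M phase list had a median of 3 in both.

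**Figure D4:**
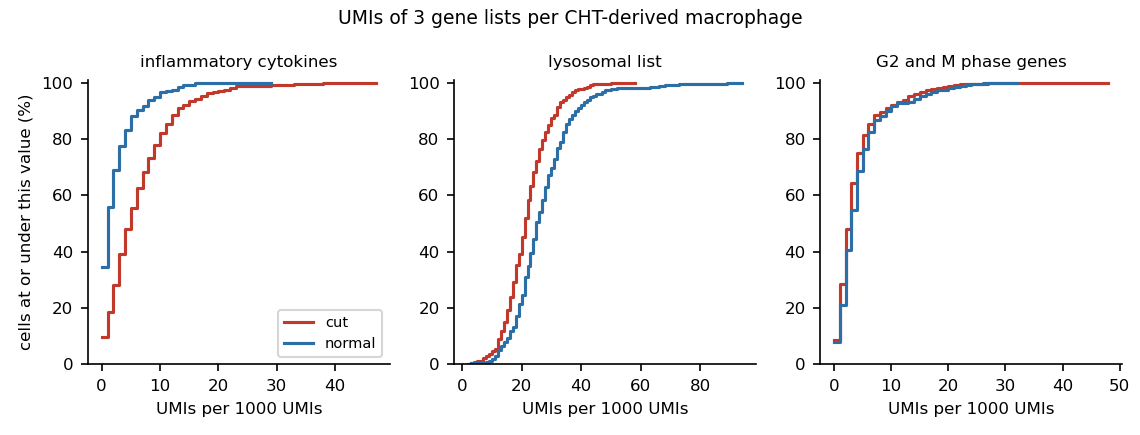
Cumulative percent of cut (red) and normal (blue) macrophages against the UMIs of a gene list per 1000 UMIs of the cell, for inflammatory cytokines, the lysosomal list and G2 and M phase genes. The cut curve lies to the right for cytokines (medians 5 in cut and 1 in normal), to the left for the lysosomal list (21 in cut and 25 in normal) and close to the normal curve for G2 and M phase genes (3 in both).

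For most combinations of these genes, cells with a gene and cells without it held the other at shares whose intervals overlap. Of 91 combinations of a gene and cells with another gene, intervals overlapped in 76 in cut and 83 in normal macrophages, the gene was more often in the positive cells in 14 in cut and 7 in normal, and less often in 1 in each. Pairs in which each gene also set a group of cells were counted in both directions, so these combinations are not separate pairs. Some of the groups hold few cells, such as the 1 normal cell with il10. In cut macrophages cxcl8a was detected in 47.8% (39.9 to 55.8) of the 161 tnfa-positive cells and 24.4% (21.5 to 27.5) of the other 840. The growth factor csf3b was in 49.1% (41.1 to 57.1) of the 161 tnfa-positive cells and 29.4% (26.3 to 32.6) of the other 840. The gene il1b was in 98.6% (92.4 to 99.96) of the 71 il10-positive cells and 82.8% (80.2 to 85.2) of the other 930. The chemokine cxcl8a was in 47.3% (35.6 to 59.3) of the 74 cxcl11.1-positive cells and 26.6% (23.8 to 29.6) of the other 927. In normal macrophages hbegfb was in 14.6% (9.15 to 21.6) of the 137 ifitm1-positive cells and 1.94% (0.840 to 3.78) of the other 413. There slc43a3b was in 3.65% (1.195 to 8.31) of the 137 ifitm1-positive cells and 17.2% (13.7 to 21.2) of the other 413. In cut macrophages the intervals of both overlapped, with hbegfb in 25.2% (21.6 to 29.0) of the 560 ifitm1-positive cells and 20.0% (16.3 to 24.0) of the other 441 and slc43a3b in 2.86% (1.64 to 4.60) of the 560 ifitm1-positive cells and 2.72% (1.41 to 4.70) of the other 441. They overlapped likewise for hbegfb, in 23.6% (17.3 to 30.9) of the 161 tnfa-positive cells and 22.7% (19.9 to 25.7) of the other 840. Cells of 1 library share their depth and free RNA, and these shares are descriptions.

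Ranked by ratio among genes with at least 200 UMIs, 11 of the 15 highest were muscle or muscle-type genes such as pvalb2, and 74.0 to 90.4% of their cut UMIs came from 1 cell. Muscle markers summed to 1830 CPM in cut and 133 CPM in normal macrophages, and to 911 CPM in cut and 131 CPM in normal neutrophils. In macrophages 77.2% of the cut sum lay in 1 cut cell, 41.6% of whose own UMIs were muscle transcripts. Without the 2 cut cells over 1%, the sum was 406 CPM. Free RNA held 11388 CPM of these genes in cut and 2986 CPM in normal, which at the largest free share would give 508 CPM in cut and 36.3 CPM in normal. All 6 measured neural markers were higher as well (summed 123 CPM in cut and 25.01 CPM in normal; free RNA up to 79.0 CPM in cut and 20.5 in normal). Of 5 mesenchyme markers 4 were lower, with 36.2 to 37.7% of the normal UMIs of 3 collagens in 1 cell. Of 6 globin genes 3 were higher and 2 lower, with 60.4% of the normal globin UMIs in 1 cell. Over all genes, 323 were higher and 431 lower with free RNA subtracted, and 306 and 378 without the 2 cut and 1 normal cells over 1%.

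Without the 3 cells rich in another type's transcripts, the highest 15 began with il10 (4.65 with all cells and 4.66 without), cxcl11.1, BX470214.1 (54.5 CPM in cut and 4.81 in normal with all cells), BX908782.2 (311 CPM in cut and 32.1 in normal), and mknk2a, a kinase acting on translation. Next came ccl20a.3, hbegfb, ccl38a.5, ikzf1, egr1 and lacc1, a laccase-domain enzyme of macrophage metabolism, and tnfa and ifitm1 were among the 15 too. These names were read after the data were seen. The lowest were rgn, a calcium-binding enzyme (7.47 CPM in cut and 44.1 in normal, -2.56), slc43a3b (ENSDARG00000057949; 33.0 CPM in cut and 193 in normal, -2.55), ctsk, the complement gene c1qb, slc40a1 and ctss2.1. Of these, c1qb was among the genes that chose the cells, so its value is a description only, and the source of the slc40a1 UMIs was not tested. Next came si:ch1073-440b2.1 (-1.996), kctd12.2 (-1.93), cxcr4b, si:dkey-56m19.5 (-1.84), rab44, a vesicle GTPase (-1.76), klf2a, fam210b (-1.69) and pparg. Among the most abundant transcripts, CU499336.2 had 5843 CPM in cut and 2069 CPM in normal macrophages (1.498), while actb2, the actin gene, had 0.00.

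Macrophages that the head illumination had marked as RBI-derived came from other libraries, with 230 cells in cut and 44 in normal, and give the same contrast in separate droplets. Of the 315 genes higher in CHT-derived macrophages, 90 had enough UMIs there, of which 47 were at least 2-fold higher and 0 lower (median 1.06). Of the 379 lower genes 55 were measured, 16 were lower and 1 was higher (median -0.69). Of 2344 measured genes that were neither, 97 were higher and 20 lower (median 0.05). RBI-derived macrophages held 981899 UMIs in cut and 312149 in normal. Genes high in cut thus reached the needed UMIs more easily, which favours calls on the higher side, and these counts are a description. The embryos behind both colours were the same pools, so this is no separate experiment.

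Gene by gene, the log2 ratio of il1b was 1.33 in CHT-derived and 1.17 (1.00 to 1.34) in RBI-derived macrophages, and that of tnfb 1.08 in CHT-derived and 1.18 (0.89 to 1.49) in RBI-derived cells. For ifitm1 they were 1.97 in CHT-derived and 1.53 (1.31 to 1.75) in RBI-derived cells, and for hbegfb 2.40 in CHT-derived and 1.86 (1.21 to 2.57) in RBI-derived cells. For cxcl11.1 the values were 4.21 in CHT-derived and 0.72 (0.23 to 1.23) in RBI-derived macrophages, for tnfa 2.01 and 0.76 (0.03 to 1.58) and for cxcl8a 1.45 and 0.77 (0.36 to 1.19). For il10 RBI-derived macrophages had 26 UMIs in cut and 0 in normal. On the lower side the values were -2.22 in CHT-derived and -1.12 (-1.64 to -0.59) in RBI-derived macrophages for ctsk and -2.06 and -1.36 (-1.56 to -1.16) for ctss2.1. They were -1.595 and -2.14 (-2.76 to -1.53) for mrc1b and -1.37 and -0.10 (-0.41 to 0.21) for hmox1a. The exporter slc40a1 was at -2.10 in CHT-derived and on the other side of 0, at 0.46 (-0.85 to 2.03), in RBI-derived macrophages, where it had 26 UMIs in cut and 6 in normal. Whether the response differed between the 2 origins was not tested, since each is 1 library per condition.

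CHT-derived neutrophils come from the same 2 libraries, so the values stand side by side only. The log2 ratio of il10 was 4.65 in macrophages and 3.75 (3.35 to 4.17) in neutrophils, and that of il1b 1.33 in macrophages and 0.93 (0.88 to 0.98) in neutrophils. For csf3b they were 1.603 in macrophages and 1.22 (1.06 to 1.39) in neutrophils, and for ctss2.1 -2.06 and -1.04 (-1.11 to -0.97). The other cathepsin gene ctsk was at -2.22 in macrophages and 0.56 (-0.21 to 1.34) in neutrophils, which held 34 UMIs in cut and 27 in normal. For hamp the values were 0.87 in macrophages and 3.73 (3.44 to 4.03) in neutrophils. The macrophage chemokine ccl34a.4 was detected in 82.9% in cut and 69.6% in normal macrophages after thinning and in 27.4% in cut and 0.593% in normal neutrophils. The part of free RNA and of mixed droplets in these neutrophil values was not tested.

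**Figure D5:**
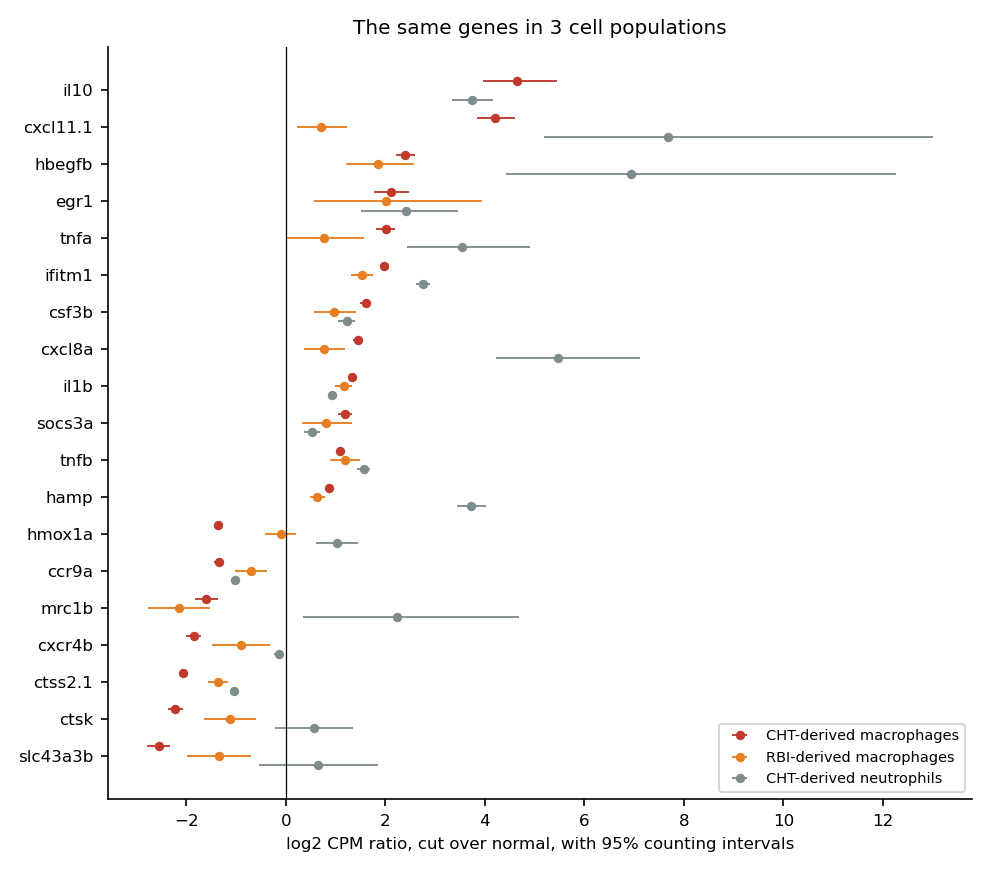
Log2 CPM ratio of cut over normal with 95% counting intervals for 19 genes in CHT-derived macrophages (red), RBI-derived macrophages (orange) and CHT-derived neutrophils (grey); each is 1 library per condition, and il10 is not drawn for RBI-derived macrophages, whose normal library had 0 UMIs. Red and orange points lie on the same side of 0 for every gene drawn in both, with hmox1a near 0 in orange (-0.10), while slc40a1, which is not drawn, was at -2.10 in CHT-derived and 0.46 in RBI-derived macrophages. In neutrophils hmox1a and mrc1b lie above 0 (1.03 and 2.23), as does ctsk at 0.56 with an interval that holds 0 (-0.21 to 1.34).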

How the data were processed

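Droplet libraries of sorted zebrafish cells were deposited by the authors as raw counts, whole-number UMI counts per gene and barcode, made with Cell Ranger 7.1.0 per the file headers; the submitters' notes name the build GRCz11 and Seurat. No coordinates are given, as the annotation at hand is of another build. From 24783 symbols, 517 with several IDs were summed. Barcodes were classed by the limits given above, whose values chose the cells. UMIs were summed per group, so each group is 1 sample, and ratios, Poisson and binomial intervals (95%) cover counting error only. A gene needed at least 50 UMIs over both groups and was called at 2-fold; a group at 0 was set to 3 counts. Named genes were the 15 highest and 15 lowest ratios among genes with at least 200 UMIs, the 3 most abundant, 2 highest and 2 lowest of each gene list, the genes that chose the cells and the 10 most abundant of each library; some further list members past 2-fold were named after their values were seen, others are given by counts, and 1 is not reported here. The cells and gene lists were chosen with earlier results of these data known. Doublets were kept in and removed as an alternative (68 of 2925 cut and 27 of 1849 normal barcodes, scored with scanpy 1.11.5). Depth was 15982680 UMIs in the cut and 17303744 in the normal library, of 7409098 to 17303744 over the 4. Alternatives were other scalings (edgeR 4.0.16 TMM, median of ratios, none), depths, gene filters, cell limits and free RNA subtraction, whose effect closes the text; 3 more, leaving out single cells or shared barcodes, were added after seeing the data. Sums and intervals used scipy 1.17.1 and pandas 2.3.3 under Python 3.11.15, edgeR ran under R 4.3.3, and the code was tested on simulated data.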

Additional observations from a re-analysis of the deposited data

Results flagged for a closer look

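Genes past 2-fold in opposite directions in CHT-derived macrophages and in CHT-derived neutrophils of the same 2 libraries are given here as log2 CPM ratios of cut over normal; the difference was not tested, as each group is 1 library. The haem oxygenase hmox1a was at -1.37 in macrophages and 1.03 in neutrophils, the mannose receptor mrc1b at -1.60 and 2.23, the apolipoprotein apoeb at -1.28 and 3.60, and si:dkey-56m19.5 at -1.84 and 1.23. The cytokine il4 was at 1.05 in macrophages and -1.47 in neutrophils. The chaperone hspb1 was at -1.38 in macrophages and 1.08 in neutrophils, and the epidermal keratin krt4 at -1.37 and 3.56. Among collagen and matrix genes, col1a1a was at -3.05 in macrophages and 2.03 in neutrophils, col1a1b at -2.97 and 2.43, col1a2 at -3.01 and 2.63, and postnb at -2.11 and 2.89. The globins hbae1.1 and hbae1.3 were at -2.61 and -1.93 in macrophages and at 1.68 and 2.16 in neutrophils. For krt4, the collagens and these globins a single normal macrophage held 36.2 to 87.2% of the normal UMIs. Neutrophil counts of mrc1b, apoeb and the collagens rest on few UMIs. The macrophage chemokine ccl34a.4 was at 4.26 in neutrophils, with 1228 UMIs in cut and 75 in normal. The part of free RNA and of mixed droplets in the neutrophil values of this section was not tested. The direction of il4 turned in macrophages thinned to equal depth.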

How the results depend on the processing

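The counts of 315 higher and 379 lower genes stayed within 1.5 times under 17 of 22 alternatives each. They were 96 and 3089 as UMIs per cell, 729 and 850 in cells thinned to 1000 UMIs, 1047 and 1045 with at least 10 UMIs a gene, 141 and 119 with at least 200, and 1673 and 1888 with no gene filter. As UMIs per cell, 2 inflammatory cytokines and 1 NF-κB gene were higher, and 27 lysosomal, 26 S phase and 34 G2 and M phase genes were lower. Thinned, 7 NF-κB genes were higher and 8 S phase genes lower. With no gene filter 13 inflammatory cytokines were higher and 2 CXC chemokines and 10 S phase genes lower, with at least 10 UMIs again 2 and 10, and with at least 200 UMIs 1 S phase and 1 G2 and M phase gene. With at least 10 marker UMIs 8 S phase genes were lower and the ratio of cell numbers was 1.59. The G2 and M phase count was 3 by the mean over cells and 0 without cycling cells, which were picked by these same genes. The cut share of macrophages among macrophages and neutrophils was 54.2% with at least 2000 UMIs, 50.9% by the Cell Ranger 2 rule, 41.5% with at least 10 marker UMIs and 43.3% with markers at 0.2% or more. The normal share was 43.1 to 46.0% over 8 alternatives.

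As UMIs per cell, log2 ratios between 0 and 0.79 turned, none of them past 2-fold. Among named genes past 2-fold, directions turned for il4 (-0.13, thinned) and globins: hbae1.1 and hbae1.3 were at 0.44 and 0.68 with at least 10 marker UMIs, 0.37 and 0.77 with markers at 0.2% or more, 0.52 and 0.75 without cycling cells, 0.36 and 0.61 without cells rich in another type, and 0.083 and 0.51 without the richest cell, hbae1.3 at 0.67 without cells led by another class, and hbae3 and hbbe1.3 at -0.39 and -0.45 with free RNA subtracted and -0.55 and -0.59 with free RNA from 10 to 50 UMIs. No paired analysis was possible because the 4 entries of each condition share 1 matrix, and no library could be left out. Depth limits genes with few UMIs in normal macrophages, such as il10 with 17 and steap4 and cxcl18b with 7 each. The response of 1 pool per condition cannot be told apart from differences between the pools, sorts and runs.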
